A study of Homo sapiens with 6 samples.

Results

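A set of 10 genes of epithelial polarity and polarized membrane traffic was examined: CRB3, PARD6B, PRKCI, LLGL2, AP1M2, MAL2, RAB11FIP1, MYO5B, MYO5C and EPS8L1. The series measured 18417 genes in all. Each of the 10 had 1 probe set carrying its symbol alone. Values came from 6 arrays of H358, an established human non-small cell lung cancer line. The 3 control arrays came from H358 cells stably expressing green fluorescent protein (GFP), and the other 3 from H358 cells stably expressing TwistER. The name TwistER is that of a fusion of the Twist transcription factor to a tamoxifen-responsive estrogen receptor domain. Cells of both lines received 100 nM 4-hydroxytamoxifen (4OHT) for 12 days, so the drug is common to all arrays. The titles place the GFP arrays before, and the TwistER arrays after, epithelial-mesenchymal transition. The labels name no TwistER culture without 4OHT and do not say whether either line is a clone. The effect of the activated factor and other differences between the lines therefore cannot be told apart. Values are log2 expression, and every difference is TwistER minus GFP.

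Polarized epithelial cells keep an apical membrane facing the lumen apart from the basolateral membrane facing neighbours and matrix. The Crumbs and PAR complexes mark the apical side, and Lgl, Scribble and Dlg proteins mark the basolateral side. Newly made and recycled membrane proteins reach the right side through adaptors, raft-associated proteolipids, RAB11-positive recycling endosomes and class V myosin motors. AP1M2 and LLGL2 carry basolateral roles in textbook accounts, so the set covers both sides of the cell and not the apical side alone. The genes were proposed with the differences between these lines already known. Their differences are accordingly given as a description, with no p-value printed for any of them.

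The promoters of the genes are shown because several of them were lower together and because the repressors of the SNAI and ZEB families bind a defined E-box. RefSeq (GRCh38.p14) gave promoter windows, 250 bases before to 50 after a start, for 6 of the 10 genes, among them a pair of windows for EPS8L1. No window was given for PARD6B, LLGL2, MAL2 or RAB11FIP1. The windows were searched on both strands for CAGGTG, which reads CACCTG on the other strand and is the E-box of SNAI and ZEB proteins. A second search was for CATCTG, which reads CAGATG on the other strand, an E-box of the Twist kind. They were also searched for ACCGGT, the core of the grainyhead-like site and its own reverse complement. Both E-boxes have the form CANNTG, and ACCGGT does not. The 250 bases upstream of the start follow for 5 genes, 5′ to 3′ on the gene's strand, with matches in capitals.
CRB3 promoter, chr19:6464021-6464270, + strand: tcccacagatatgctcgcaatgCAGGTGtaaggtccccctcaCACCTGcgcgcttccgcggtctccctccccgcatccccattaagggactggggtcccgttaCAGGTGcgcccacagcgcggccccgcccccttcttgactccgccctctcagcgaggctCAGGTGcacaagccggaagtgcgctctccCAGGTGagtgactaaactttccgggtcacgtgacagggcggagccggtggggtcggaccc
AP1M2 promoter, chr19:10587313-10587562, - strand: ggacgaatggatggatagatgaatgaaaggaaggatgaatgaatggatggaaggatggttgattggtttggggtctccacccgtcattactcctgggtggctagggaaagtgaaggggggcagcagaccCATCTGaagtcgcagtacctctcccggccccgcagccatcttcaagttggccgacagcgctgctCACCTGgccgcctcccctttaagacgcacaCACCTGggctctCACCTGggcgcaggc
MYO5B promoter, chr18:50195148-50195397, - strand: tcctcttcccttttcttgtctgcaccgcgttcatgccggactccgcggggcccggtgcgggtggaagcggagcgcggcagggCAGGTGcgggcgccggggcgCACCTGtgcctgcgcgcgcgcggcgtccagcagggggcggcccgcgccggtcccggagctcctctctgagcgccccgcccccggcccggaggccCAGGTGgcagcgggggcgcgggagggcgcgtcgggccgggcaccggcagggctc
MYO5C promoter, chr15:52295805-52296054, - strand: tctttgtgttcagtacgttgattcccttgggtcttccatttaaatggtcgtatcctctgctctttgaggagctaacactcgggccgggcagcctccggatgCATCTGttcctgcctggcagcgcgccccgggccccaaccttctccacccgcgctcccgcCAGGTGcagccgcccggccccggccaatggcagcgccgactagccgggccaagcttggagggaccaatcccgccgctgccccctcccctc
PRKCI promoter, chr3:170222174-170222423, + strand: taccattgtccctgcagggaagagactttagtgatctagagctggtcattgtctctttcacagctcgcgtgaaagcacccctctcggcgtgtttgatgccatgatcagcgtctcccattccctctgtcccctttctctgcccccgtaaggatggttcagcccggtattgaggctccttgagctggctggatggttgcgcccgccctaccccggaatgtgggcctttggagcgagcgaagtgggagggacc
The CRB3 window held 5 matches to the SNAI and ZEB E-box, which begin 228, 208, 147, 89 and 60 bases before the start. In AP1M2, 3 matches begin 57, 27 and 15 bases before the start, and in MYO5B 3 begin at 168, 148 and 54. MYO5C held 1, at 90, EPS8L1 held 1 in the first of its windows, at 76, and PRKCI held 0. In all, 5 of the 7 windows contained this E-box, against 20.6% of all 35116 RefSeq promoters. Of these 5, the windows of CRB3 and EPS8L1 belong to genes whose arrays overlapped between the groups. Among other polarity and transport genes, listed further on, this E-box was in 9 of the 24 windows of 14 genes that fell (37.5%). It was in 1 of the 6 windows of 5 genes that rose and 24% of the 129 of 82 genes that did not pass. Windows of the same gene were counted separately, so a gene can count more than once. Both windows of MALL, a relative of MAL2 that fell, held 0. The Twist-kind E-box occurred in 3 of the 7, in AP1M2, MYO5C and the other EPS8L1 window, against 14.7% of all promoters and 0 of the 24 windows of the other genes that fell. The grainyhead-like core was in 0 of the 7 and in 1.83% of all promoters. A match is a run of letters and not a measured binding site. The genes were chosen with the contrast known, so these shares describe the windows and support nothing.

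**Figure D1:**
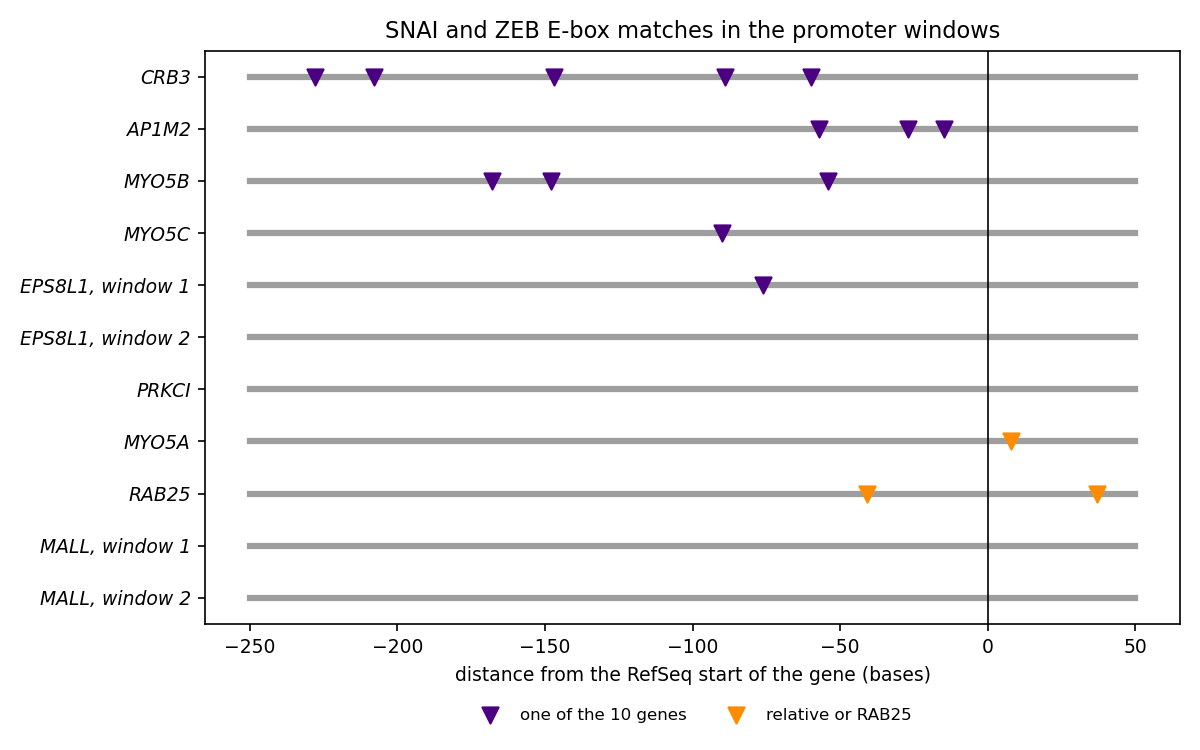
Positions of the SNAI and ZEB E-box (triangles) in all 7 promoter windows of the 10 genes (purple) and in those of MYO5A, RAB25 and MALL (orange), in bases from the RefSeq start (vertical line), with the window of 250 bases before to 50 after as a grey bar. CRB3 has 5 matches, AP1M2 and MYO5B 3 each, MYO5C 1, EPS8L1 1 in the first of its windows and PRKCI 0. RAB25 has 1 before and 1 after the start, MYO5A 1 after it, and the MALL windows 0.

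The 10 genes did not move as a block. MAL2 and MYO5C were lower in TwistER by 11.7-fold and 9.82-fold, AP1M2 by 4.53-fold, MYO5B by 2.95-fold and PARD6B by 1.81-fold. In these 5 genes every TwistER array lay below every GFP array. LLGL2, CRB3 and EPS8L1 had smaller differences with overlapping arrays, and PRKCI and RAB11FIP1 differed by less than 0.1 on the log2 scale. The median difference of the 10 was -0.63, beside 0.01 over all genes. The groups did not overlap, with TwistER lower, in 5 of the 10 and in 14.5% of all genes. The same 5 were past an adjusted p of 0.05 in limma, a threshold that 4.11% of all genes passed downward. Without GFP replicate 1 LLGL2 was past it too, and 8.09% of all genes passed downward. The known contrast chose the genes, so these counts describe the set and support nothing. In bulk RNA, fewer cells with a transcript and less transcript per cell cannot be told apart.

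**Figure D2:**
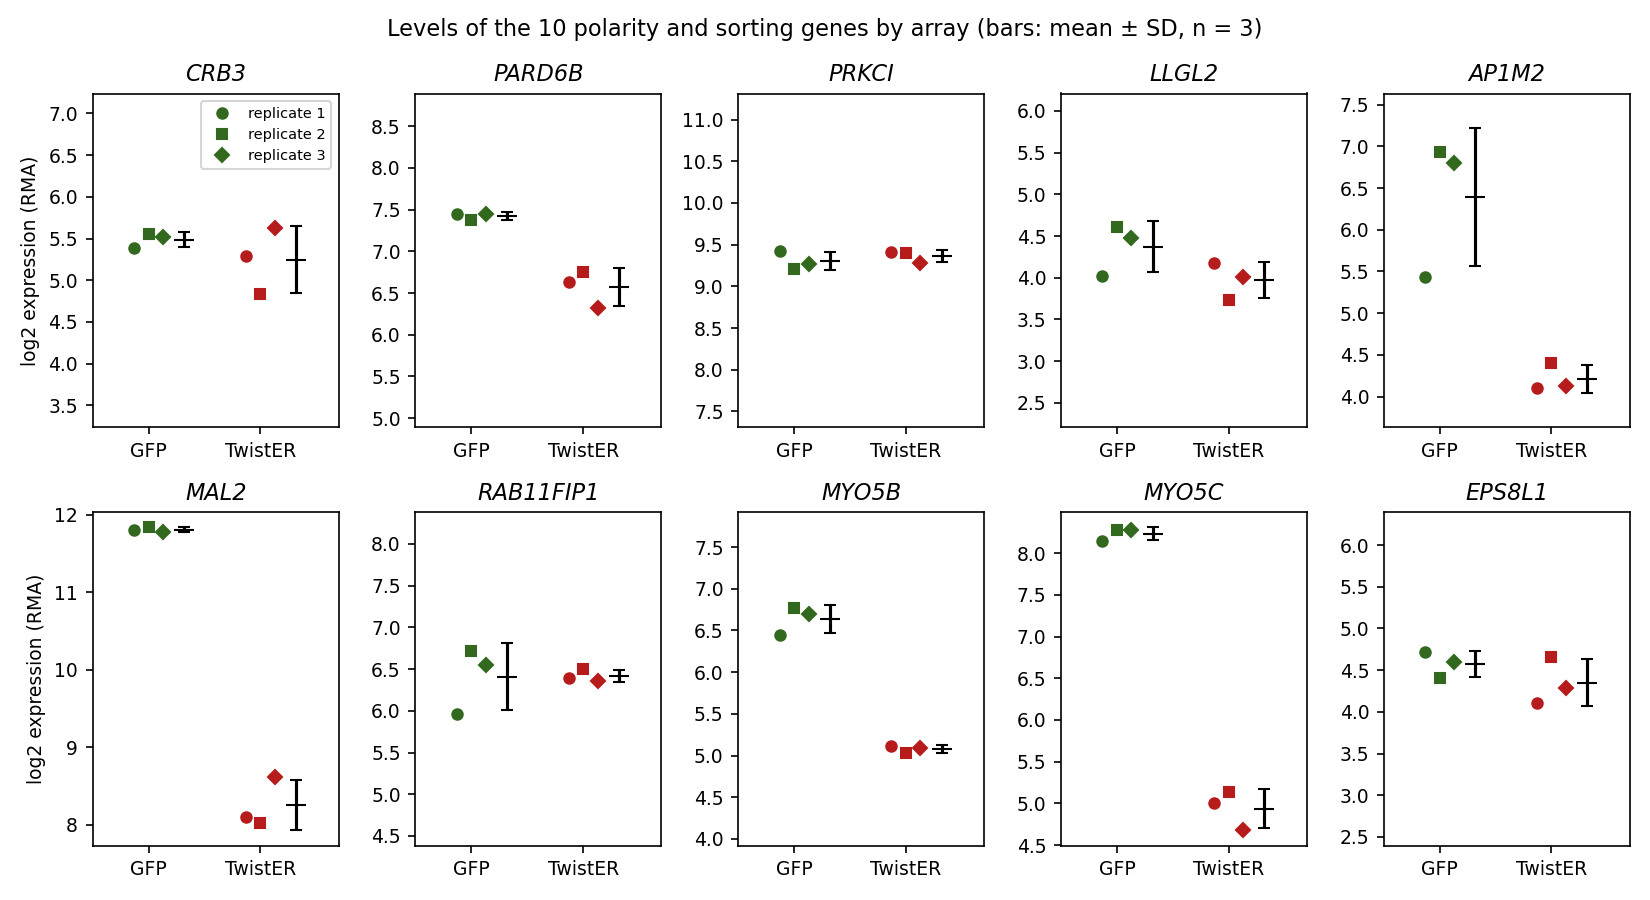
Log2 expression of each gene on every array, GFP in green and TwistER in red, with marker shape giving the replicate number and black bars the mean ± SD of 3 arrays. All panels span about the same number of log2 units but start at different levels. MAL2, MYO5C, AP1M2, MYO5B and PARD6B separate the groups, and the other 5 genes overlap.

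The depth of a single measurement is not known for arrays, and their number, 3 per group, limits the precision. Arrays of a group correlated over genes at r = 0.982 to 0.996. One control array, GFP replicate 1, was less like its group: it correlated at 0.982 and 0.983 with the rest, which correlated with each other at 0.996. Across the groups, GFP replicate 1 correlated with the TwistER arrays at 0.968 to 0.972, and GFP replicates 2 and 3 did so at 0.979 to 0.980. Of the 6 epithelial markers examined (EPCAM, CDH1, KRT7, KRT8, KRT18 and KRT19), 6 were above the arrays' lower quartile in both groups, and 4 fell. CDH1 fell 31.9-fold, EPCAM 9.73-fold and KRT19 9.30-fold, and each kept its call throughout. KRT8 fell 1.63-fold and lost its call without GFP replicate 2, GFP replicate 3 or TwistER replicate 2 (highest limma adjusted p 0.0739). KRT7 and KRT18 did not pass. The markers of lung lineage NKX2-1, SFTPB, SFTPC and SCGB1A1 had medians per array of only 4.51 to 4.57 in GFP and 4.50 to 4.57 in TwistER, near the lower quartile of 4.19, and did not pass. Among 6 fibroblast markers 2 rose and 1 fell, and their medians per array were 4.75 to 4.93 in GFP and 5.26 to 5.46 in TwistER. COL1A1, one of the 2 that rose, lost its call without any array except GFP replicate 1 (highest limma adjusted p 0.142). COL3A1 rose 4.39-fold and kept its call throughout. LUM, the marker that fell, did so 3.09-fold (limma adjusted p = 0.000889) and also kept its call throughout. Of 4 leukocyte markers 0 passed in limma, with medians per array of 3.44 to 3.70 and 3.77 to 3.98. Of 3 endothelial markers PECAM1 alone passed, upward, and the medians were 3.92 to 4.21 and 4.06 to 4.44. The PECAM1 call ended without GFP replicate 2 or TwistER replicate 1 or 3 (highest limma adjusted p 0.0765). The part of other cell types in the differences was not tested. TWIST1 read 6.20 to 6.62 in GFP and 6.30 to 6.84 in TwistER, and whether its probes see the inserted sequence is not given, so it does not check the labels.

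Among the polarity genes, PARD6B alone separated the lines. PARD6B encodes the PAR6 adaptor that couples atypical protein kinase C to the small GTPase CDC42. It read 7.45, 7.37 and 7.45 in GFP and 6.63, 6.76 and 6.32 in TwistER. The GFP values lay within 0.1 of each other, and the highest TwistER value was 0.62 below the lowest of them. The difference was -0.86 ± 0.13 (SE, 3 arrays per group), and -0.84 without GFP replicate 1.

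PRKCI, the atypical kinase iota that PAR6 regulates and that phosphorylates Lgl proteins, had overlapping levels in the lines. Its values were 9.42, 9.21 and 9.27 in GFP and 9.41, 9.40 and 9.28 in TwistER. The TwistER arrays fell inside the GFP range, and the difference was 0.06 ± 0.11, with a 95% interval of -0.19 to 0.31. It ranged from 0.02 to 0.12 when single arrays were left out.

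CRB3, the Crumbs protein of mammalian epithelia and an anchor of the apical complex, read 5.39, 5.55 and 5.52 in GFP. In TwistER it read 5.29, 4.83 and 5.62, so that TwistER replicate 3 was above all GFP arrays and replicates 1 and 2 were below them. The difference was -0.24 ± 0.19, with an interval of -0.67 to 0.19. It ranged from -0.43 to -0.03 when single arrays were left out. Its promoter is the one with 5 SNAI and ZEB E-box matches, more than in any of the other windows printed above.

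LLGL2, a Lgl homologue of the basolateral cortex that opposes the atypical kinase, read 4.03, 4.61 and 4.48 in GFP and 4.17, 3.74 and 4.01 in TwistER. GFP replicate 1 lay among the TwistER arrays, and the other GFP arrays lay above them. The difference was -0.40 ± 0.18 over all arrays and -0.57 without GFP replicate 1. The TwistER mean of 3.97 was below the arrays' lower quartile of 4.19, where background light compresses differences.

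Both genes of cargo sorting were lower in TwistER. MAL2 encodes a raft-associated proteolipid required for transcytosis to the apical surface. Its values were 11.80, 11.84 and 11.78 in GFP and 8.10, 8.03 and 8.62 in TwistER. The GFP arrays agreed to an SD of 0.03, and the closest arrays of the 2 groups were 3.16 apart. The difference of -3.55 ± 0.16 ranked 8th among the largest falls of the 18417 genes. Even so, the TwistER mean of 8.25 ± 0.32 (SD, n = 3) stayed above the arrays' upper quartile of 7.18.

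AP1M2 encodes the medium subunit mu1B of the epithelial adaptor AP-1B, which sorts cargo to the basolateral membrane from the trans-Golgi network and recycling endosomes. It read 5.43, 6.93 and 6.81 in GFP and 4.10, 4.40 and 4.13 in TwistER. GFP replicate 1 differed from the next GFP array by -1.37 and was still 1.03 above the highest TwistER array. AP1M2 had the widest spread of the 10 genes in GFP, an SD of 0.83. The difference was -2.18 ± 0.35, and -2.66 without GFP replicate 1. The TwistER mean of 4.21 ± 0.16 stood at the lower quartile of the arrays (4.19), a range where background light compresses differences.

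Of the genes of recycling endosomes and their motors, both myosins were lower and the RAB11 effector was not. MYO5C, a class V myosin of secretory epithelia, read 8.15, 8.28 and 8.28 in GFP and 5.01, 5.13 and 4.68 in TwistER. All TwistER arrays lay at least 3.02 below all GFP arrays. Its difference of -3.30 ± 0.14 ranked 10th among all falls and was -3.34 without GFP replicate 1.

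MYO5B, the motor that binds RAB11 on apical recycling endosomes and is mutated in microvillus inclusion disease, read 6.45, 6.77 and 6.70 in GFP. It read 5.12, 5.03 and 5.10 in TwistER, an SD of only 0.04. The groups were 1.33 apart at their closest, and the difference was -1.56 ± 0.12.

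RAB11FIP1, also known as Rab coupling protein, links RAB11 and RAB25 to recycling cargo. It read 5.96, 6.72 and 6.54 in GFP and 6.39, 6.50 and 6.36 in TwistER. The TwistER arrays lay inside the GFP range, which GFP replicate 1 widened at its lower end. The difference was 0.01 ± 0.19 over all arrays and -0.22 without GFP replicate 1. It was -0.03 without TwistER replicate 2 and -0.02 with each array centred on 1 median.

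EPS8L1, a relative of the actin regulator EPS8, read 4.71, 4.41 and 4.60 in GFP and 4.11, 4.66 and 4.28 in TwistER. TwistER replicate 2 lay within the GFP range and the others below it. The difference was -0.22 ± 0.16, with an interval of -0.59 to 0.14. It was -0.10 without TwistER replicate 1 and -0.38 without TwistER replicate 2, and both means were close to the lower quartile of the arrays.

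GFP replicate 1 was the lowest GFP array for 6 of the 10 genes and the highest for 2. Its distance from the mean of the other GFP arrays had a median of -0.14 and reached -1.43 in AP1M2, -0.67 in RAB11FIP1 and -0.52 in LLGL2. Without it, 7 of the 10 differences were more negative, and the median difference was -0.71. The other 7 differences shifted by less than 0.1 on the log2 scale in either direction. Averaged over the 10 genes after each was centred on its own mean, the GFP arrays stood at 0.43, 0.72 and 0.69, and the TwistER arrays at -0.62, -0.60 and -0.61. The labels give no batch that would set this array apart, and the cause was not tested.

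**Figure D3:**
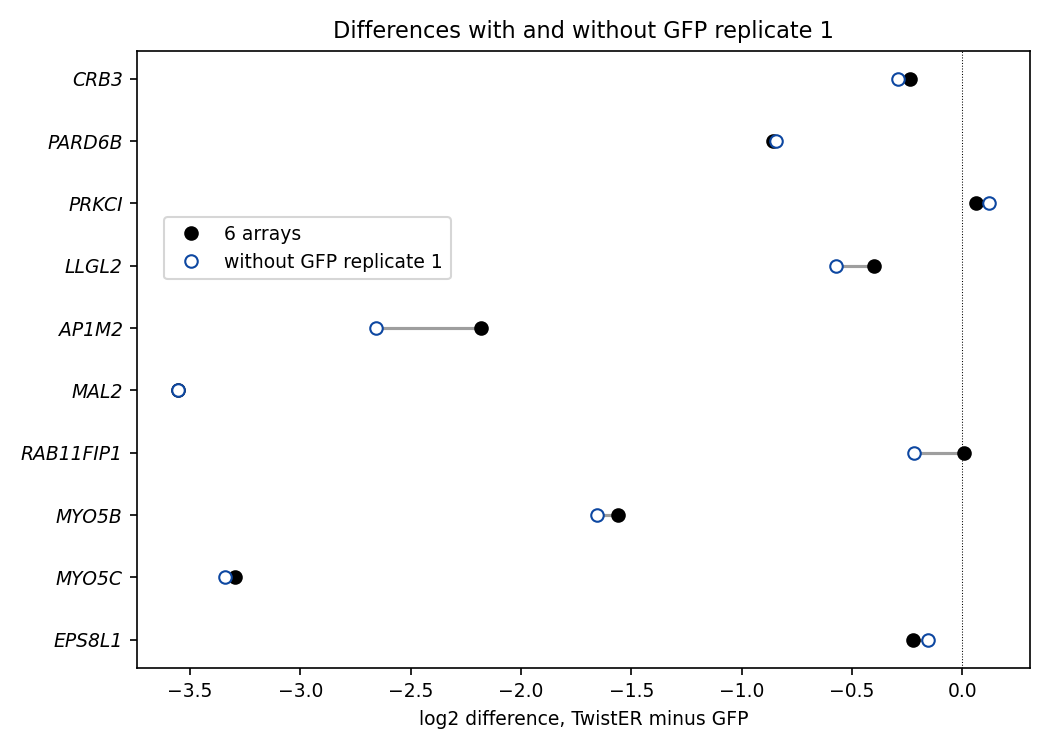
Log2 difference of each gene over 6 arrays (filled points) and without GFP replicate 1 (open points), joined by a line. AP1M2 moves from -2.18 to -2.66 and RAB11FIP1 from 0.01 to -0.22, while MAL2 and MYO5C hardly move.

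Each gene was set beside its nearest relatives, 15 genes in all, of which 2 fell, 1 rose and 12 did not pass in limma. All 12 lay between -0.10 and 0.35 over the 6 arrays, and some lay lower without GFP replicate 1, as given below. The median of the 15 was -0.02, and 8.83% of all genes passed the test in either direction. The pairs show where a fall in one gene was not matched by its relative, and the difference between relatives was not tested. The dimmest relatives had GFP means of 3.23 (CRB1), 4.33 (PARD6A), 4.46 (PARD6G), 4.47 (MAL) and 4.56 (AP1M1). These means lay below or near the arrays' lower quartile of 4.19, where background light compresses differences and a fall could be missed. The other relatives were brighter in GFP.

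Over all arrays the relatives of the polarity genes had small differences. For the Crumbs family, CRB1 had a difference of 0.06 ± 0.17 and CRB2 one of 0.04 ± 0.24. For the PAR6 adaptors, the other two stood at -0.07 ± 0.19 (PARD6A) and -0.05 ± 0.11 (PARD6G), beside -0.86 in PARD6B. The kinase zeta gene PRKCZ was at 0.03 ± 0.24, and the second Lgl gene LLGL1 at 0.21 ± 0.16. Without GFP replicate 1, CRB2 stood at -0.26, PRKCZ at -0.28 and LLGL1 at 0.06, and none of them passed in limma.

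Among the relatives of the sorting genes, MALL fell with MAL2, and MAL did not. MALL, a raft proteolipid of the same family, read 8.46, 8.73 and 8.83 in GFP and 6.28, 5.98 and 6.34 in TwistER. It fell 5.55-fold (-2.47 ± 0.15, limma adjusted p = 2.94e-05). MAL, the founding member of the family, had a difference of 0.32 ± 0.13 (limma adjusted p = 0.191). AP1M1, the ubiquitous counterpart of AP1M2, read 4.33 to 4.70 in GFP and 4.37 to 4.51 in TwistER, a difference of -0.10 ± 0.13 (limma adjusted p = 0.739). Without GFP replicate 1 its difference was -0.22 and did not pass either.

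The third class V myosin, MYO5A, fell 1.56-fold (-0.64 ± 0.11, limma adjusted p = 0.00713), less in size than the 9.82-fold of MYO5C and the 2.95-fold of MYO5B. RAB11FIP2, which joins RAB11 to MYO5B, rose 1.36-fold (0.44 ± 0.10, limma adjusted p = 0.0308). Removing GFP replicate 1 kept this call and removing any of the 5 remaining arrays ended it, the limma adjusted p reaching 0.136, as did median centring and the replicate block. RAB11FIP5 stood at -0.07 ± 0.11. EPS8 (-0.02 ± 0.10), EPS8L2 (-0.04 ± 0.14) and EPS8L3 (0.35 ± 0.13) did not pass.

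**Figure D4:**
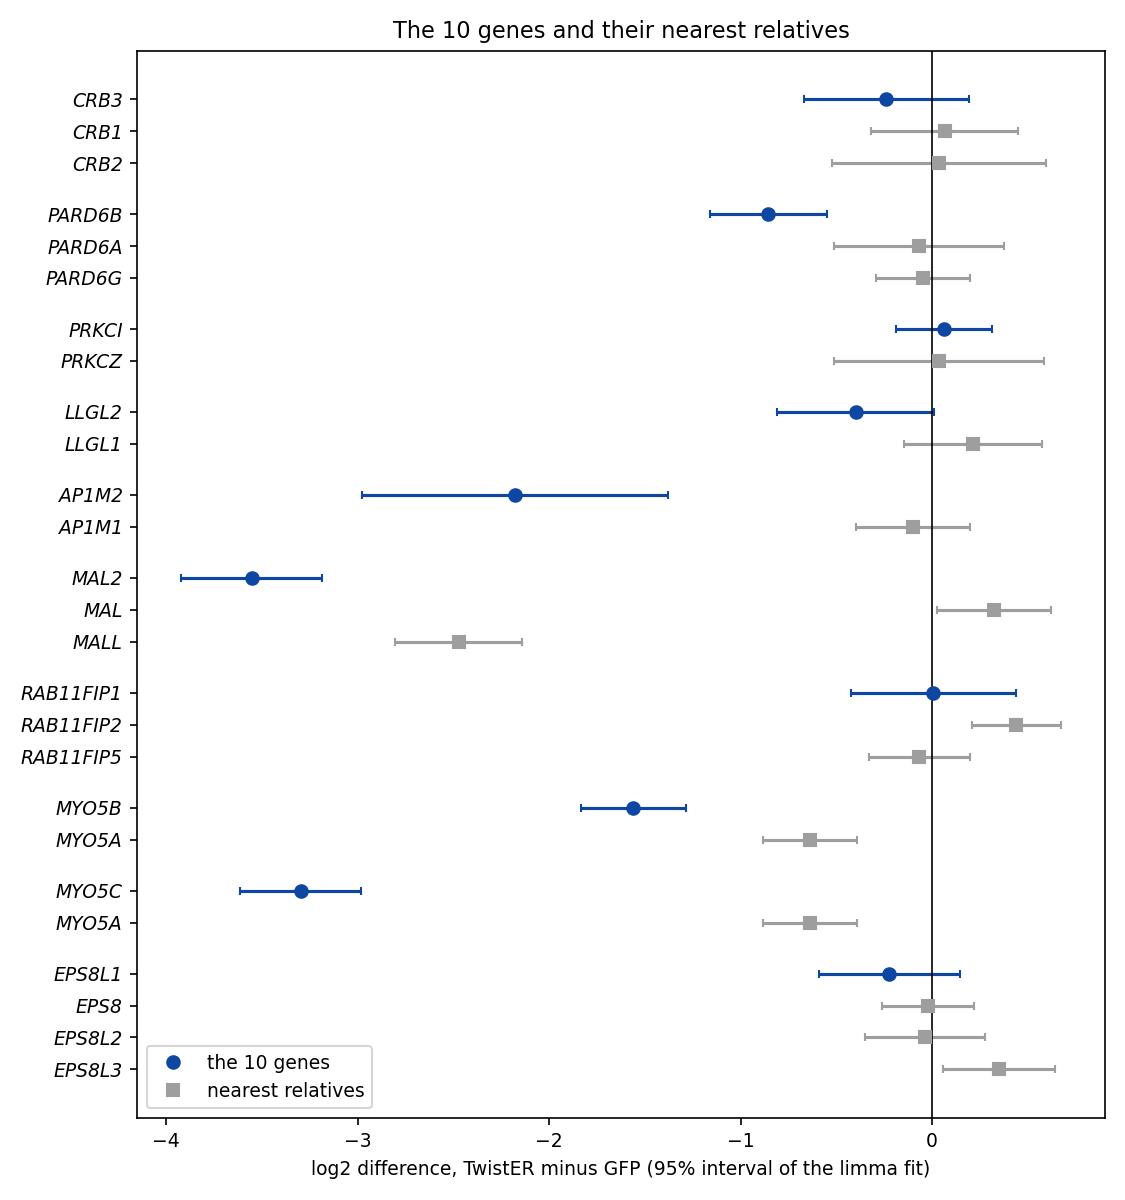
Log2 difference with the 95% interval of the limma fit for the 10 genes (blue circles) and their nearest relatives (grey squares), grouped by family, with MYO5A drawn under both of its relatives. MALL at -2.47 and MYO5A at -0.64 lie below 0 with their MAL2 and MYO5 relatives. AP1M1, PARD6A and PARD6G lie near 0, from GFP means that were already near the arrays' lower quartile.

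Other genes of polarity and polarized transport were mixed. Of 119 measured genes in 6 lists, the 10 genes left out, 7 rose, 15 fell and 97 did not pass in limma, or 18.5% against 8.83% of all genes. The lists were written with earlier results of this contrast known, so the share describes them and supports nothing. The median difference was -0.03, beside 0.01 over all genes. At least 2-fold lower were 6 of them, and at least 2-fold higher 1. Of the 22 that passed, 12 did so with any single array left out. Without GFP replicate 1, 9 rose and 19 fell, or 23.5% against 15.1% of all genes. With other arrays left out fewer rose: 4 without GFP replicate 2, 3 without GFP replicate 3 or TwistER replicate 1, and 2 without TwistER replicate 2 or 3. Over all genes the share that rose was 4.72% with every array and 2.57% to 3.51% in those 5 fits. The arrays of the lines were fully separated in 38.7% of the 119, against 28.4% of all genes.

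In the Crumbs and PAR complexes, 1 of 15 measured genes rose, 1 fell, and the median was 0.04. PATJ, a scaffold that binds the Crumbs partner PALS1, fell 1.68-fold (-0.75 ± 0.12, limma adjusted p = 0.0055). MPDZ, the closely related scaffold, rose 1.46-fold (0.54 ± 0.11, limma adjusted p = 0.0168), a call that ended without GFP replicate 3 or any TwistER replicate, the limma adjusted p reaching 0.0855. TIAM1, a RAC exchange factor that binds PAR3, stood at 0.41 ± 0.15 and did not pass (limma adjusted p = 0.165).

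In the basolateral module of Scribble, Dlg and PAR1 genes, 1 of 13 fell and 0 rose in limma, while 5 had an unadjusted p under 0.05, and the median was -0.13. DLG3 fell 1.65-fold (-0.72 ± 0.15, limma adjusted p = 0.0192), and it lost the call without any array except GFP replicate 1 (highest limma adjusted p 0.0891). DLG5 (0.63 ± 0.19) and the PAR1 kinase gene MARK2 (-0.57 ± 0.18) did not pass. Without GFP replicate 1, DLG5 rose and both MARK2 and DLG3 fell.

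The recycling list held the largest difference of the 119, in RAB25. RAB25 is the epithelial member of the RAB11 family and a partner of RAB11FIP1. It read 7.90, 8.95 and 9.08 in GFP and 4.36, 4.72 and 4.997 in TwistER, so that the groups were far apart although GFP replicate 1 was again the lowest GFP array. It fell 15.5-fold (-3.95 ± 0.30, limma adjusted p = 0.000123), and the difference was -4.32 without that array. In this list 3 of 20 rose and 4 fell, with a median of 0.01. RAB8B, a GTPase of transport to the surface, rose 1.80-fold (0.85 ± 0.14, limma adjusted p = 0.0069). RAB3IP, the exchange factor that activates RAB8, fell 1.68-fold (-0.75 ± 0.11, limma adjusted p = 0.0041), to a TwistER mean of 4.12, below the arrays' lower quartile. Besides RAB11FIP2 and MYO5A, the genes that passed were EHD3 (0.61 ± 0.13, limma adjusted p = 0.0254) and WWC1 (-0.60 ± 0.14, limma adjusted p = 0.0382), named here after their values were seen. WWC1 lost its call without any array except GFP replicate 1, and EHD3 without GFP replicate 3 or TwistER replicate 2 or 3. Without GFP replicate 3, TwistER replicate 2 or TwistER replicate 3, 1 gene of the list rose.

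In the exocytosis list of exocyst, SNARE and RAB27 genes, 1 of 22 rose and 4 fell, with a median of 0.09. RAB27B, a GTPase of secretory vesicles, fell 4.06-fold (-2.02 ± 0.11, limma adjusted p = 1.93e-05). The RAB27 effectors moved both ways, SYTL2 upward by 2.83-fold (1.50 ± 0.14, limma adjusted p = 0.000333) and SYTL5 downward by 1.94-fold (-0.95 ± 0.12, limma adjusted p = 0.00145). The SYTL5 mean of 3.63 in TwistER was below the lower quartile of 4.19, so background light may compress its fold. The other genes that fell, named after their values were seen, were the exocyst subunit EXOC6 (-0.82 ± 0.16, limma adjusted p = 0.0128) and the apical SNARE gene STX3 (-0.54 ± 0.13, limma adjusted p = 0.0387). EXOC6 lost its call without any TwistER replicate, and STX3 without any array except GFP replicate 1. Without GFP replicate 1, 2 rose and 6 fell, and without TwistER replicates 1, 2 or 3 only 2 fell.

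Among 26 sorting adaptor and raft carrier genes, 1 rose, 2 fell, and the median was -0.07. AP1S3, the small subunit sigma1C of AP-1, read 6.66, 5.76 and 6.10 in GFP and 4.34, 4.37 and 3.98 in TwistER. It fell 3.84-fold (-1.94 ± 0.22, limma adjusted p = 0.00102), so that it and AP1M2 were the AP-1 subunits at least 2-fold lower. Its TwistER mean of 4.23 stood at the lower quartile. MALL was the other gene of this list that fell. AP4M1, the medium subunit of the AP-4 adaptor and named after its value was seen, was the gene that rose (0.54 ± 0.14, limma adjusted p = 0.0433), a call that ended without GFP replicate 2 or any TwistER replicate. CLTB, a clathrin light chain, stood at -0.57 ± 0.16 and did not pass (limma adjusted p = 0.0624), though it did without TwistER replicate 3 (limma adjusted p = 0.0246).

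Of 23 microvillus genes and EPS8 relatives, 1 rose, 3 fell, and the median was 0.01. NHERF1, the scaffold that ties apical membrane proteins to ezrin, fell 2.05-fold (-1.04 ± 0.13, limma adjusted p = 0.00175). PLS1, the actin bundler of microvilli, fell 2.03-fold (-1.02 ± 0.12, limma adjusted p = 0.00125), and the actin nucleator COBL fell 1.71-fold (-0.78 ± 0.14, limma adjusted p = 0.01). The COBL call was lost without TwistER replicate 1 (limma adjusted p 0.0526), and its TwistER mean of 4.24 was near the lower quartile. PODXL, an apical sialomucin also named after its value was seen, was the gene that rose (0.46 ± 0.11, limma adjusted p = 0.0316), and only the omission of GFP replicate 1 kept this call.

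**Figure D5:**
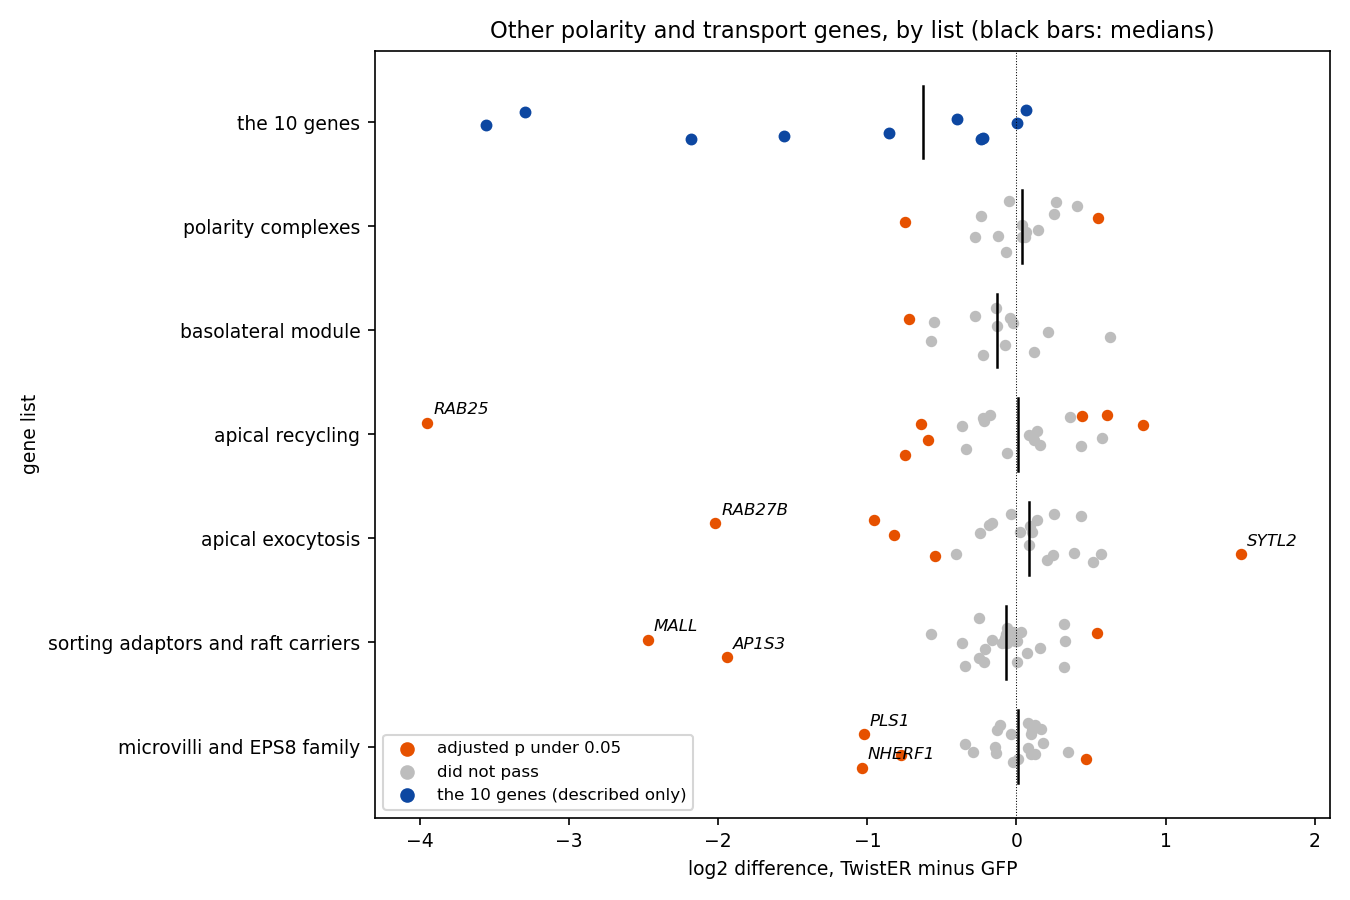
Log2 differences of the 10 genes (blue, described only) and of the 119 other genes in 6 lists, with one point per gene, orange where the limma adjusted p was under 0.05 and grey where it was not, and black bars at the medians. List medians lie between -0.13 and 0.09, and the labelled genes are those that passed with a difference of at least 1 in size.

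The 5 genes whose profile over the 6 arrays lay closest to the mean profile of the 10, by root mean square distance after centring, were MBOAT1, GBP6, PHLDA1, GPAT3 and MFSD6. Their distances were 0.07, 0.09, 0.10, 0.10 and 0.10 on the log2 scale, and their differences ran from -1.34 (GPAT3) to -1.16 (MBOAT1 and MFSD6). The 6 points share the split into lines, so any gene lower in TwistER by about the mean of the 10, -1.22, comes near.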

How the data were processed

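RNA of 6 H358 cultures was hybridised to an Affymetrix array. The deposited log2 values are per probe set and come from the authors' RMA run (per the submitters' processing notes), whose version and settings were not given in these sources. RMA equalises the arrays' distributions, so a shift of all genes would not show. Of 33297 probe sets, the 19460 with 1 gene symbol in the platform annotation were used, and the brightest per gene over 6 arrays gave 18417 genes. Related genes can share probes, and which do is not given.

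Differences were fitted with limma 3.58.1 in R 4.3.3 (lmFit, eBayes, 2-sided, no covariates) and Benjamini-Hochberg adjustment over all genes at a threshold of 0.05; rose and fell mean past it. The labels speak of biological replicates but not of how cultures were kept apart, so p-values reflect only the spread among these 6 samples, which may be technical. Samples were grouped by their labelled treatment. The members and lists were chosen with earlier results of these data known. Of 123 listed pathway genes 119 were measured. Named are the 10 genes, their relatives, the 3 genes with the largest absolute difference in each list, every gene of a list past the threshold with an absolute difference of at least 1, and the 5 nearest profiles. Alternatives were cyclic loess, median centring, the mean of probe sets, a filter at the lower quartile of brightness, a trended robust variance, the replicate number as a block, and each array left out. The fit was tested on simulated data of 18417 genes: 98% of shifts of 2 and 77% of shifts of 1 (log2) were called, beside 4 unshifted genes. The simulated noise was independent between genes and equal in both groups. It held no deviation of a whole array like that of GFP replicate 1, so these rates need not hold for the real arrays. Promoters are RefSeq's (GRCh38.p14). Plots used matplotlib 3.10.9, and tables used pandas 2.3.3 under Python 3.11.15.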

Additional observations from a re-analysis of the deposited data

How the results depend on the processing

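The mean of probe sets, the filter (which dropped LLGL2), the trended variance and the replicate block cannot alter the differences of the 10 genes, by their construction. Cyclic loess shifted them by at most 0.08 (MAL2) and median centring by 0.03. Leaving out an array shifted them by up to 0.48 (AP1M2, without GFP replicate 1). The median difference of the 10 ranged from -0.71 to -0.58 with arrays left out. Deviations from the group means correlated at 0.139, 0.015 and 0.157 between samples of the same number. Between samples of other numbers they correlated at -0.160 to 0.040. The labels give only the number, and whether such samples belong together was not tested. With the replicate block, 2 genes of the basolateral list fell, 0 sorting adaptor genes rose and 0 microvillus genes rose, against 1 each, and STX3, WWC1, RAB11FIP2, AP4M1 and PODXL lost their calls. In the block fit 3 recycling genes still rose, RAB11FIP2 not among them, so calls were gained as well as lost. The filter kept 106 of the 119 pathway genes, and 7 of these rose and 16 fell, 2 of the latter basolateral.

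With single arrays left out, genes called over all genes numbered 831 to 2773 (1627 with all arrays), 473 to 1283 of them upward and 358 to 1490 downward. The highest count came without GFP replicate 1 and shared 1609 genes with the 1627. Over the 119 pathway genes 2 to 9 rose and 10 to 19 fell. In the lists, 0 to 1 polarity complex genes rose and 1 fell throughout, 0 to 1 basolateral genes rose and 0 to 2 fell, and 1 to 3 recycling genes rose and 3 to 4 fell. Of exocytosis genes 1 to 2 rose and 2 to 6 fell, of sorting adaptor genes 0 to 1 rose and 2 to 3 fell, and of microvillus genes 0 to 1 rose and 2 to 3 fell. Genes near the lower quartile, such as LLGL2, EPS8L1 and AP1M2 in TwistER, are limited by signal over background.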
